A study of Mus musculus with 26 samples.

Results

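The fibroblasts described here carry RNA of 3 imprinted genes, H19, Mest and Plagl1. They were picked out of 2 pooled single-cell libraries of mouse skin by their measured UMIs (unique molecular identifiers, counts of single captured RNA molecules). A barcode, the tag of 1 droplet, was kept if it had at least 500 genes and at most 10% mitochondrial UMIs. It belonged to the group if H19, Mest and Plagl1 together had at least 3 UMIs, Col1a1 had at least 1 and Ptprc, the pan-leukocyte gene, had 0. By this rule 548 of 22900 fibroblast barcodes were members, out of 33086 barcodes in all. Tube 1 held 456 members among 18172 fibroblast barcodes, a share of 2.51% (95% exact binomial interval 2.29% to 2.75%, counting error only). Tube 2 held 92 among 4728, or 1.95% (1.57% to 2.38%).

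The cells came from skin of the mouse strain labelled Prrx-Cre and were sorted as fibroblasts. In this series PPF are fibroblasts with a Prrx1 history and PNF are fibroblasts without one; Prrx1 is a homeobox gene of limb bud and body wall mesenchyme. The single-cell tubes are labelled as postnatal ventral skin and, by the design text, pool PPF and PNF cells of caudal and ventral, unwounded and wounded skin, which were marked with antibody hashtags. The labels do not tie a hashtag to a condition, so no cell is assigned here to a lineage, a site or a wound. The bulk part has 24 libraries of PPF and PNF from ventral skin at E16.5, E18.5, P1 and P30, with 2, 2, 2 and 6 PPF libraries and 2, 4, 4 and 2 PNF libraries in that order. All groups share the strain and the sort, and the labels do not say whether libraries of a group came from separate animals, so p-values measure the spread between libraries, which may be technical.

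Imprinted genes are expressed mainly from the chromosome copy of 1 parent. H19 is a maternally expressed long noncoding RNA that shares its enhancers with the growth factor gene Igf2. Mest, a member of the hydrolase family, and Plagl1, a zinc finger transcription factor, are paternally expressed, and Plagl1 is known as a regulator of other imprinted genes. All are abundant in mesenchyme before birth and are turned down in most tissues after it. Skin fibroblasts of the upper (papillary) dermis, the lower (reticular) dermis, the fascia and the dermal part of the hair follicle are told apart by other genes, which were compared as lists here.

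Imprinted promoters are typically rich in CG dinucleotides, the sites of DNA methylation in mammals. The 250 bases before the annotated starts of Mest and Plagl1 are shown because the RNA of both was used to find the cells and was found in the same cells far more often than elsewhere. Capitals mark CG, and the sequences are from RefSeq (GRCm38.p6), plus strand, 5′ to 3′. The Mest stretch lies on chromosome 6 from 30737800 to 30738049, and the Plagl1 stretch on chromosome 10 from 13090582 to 13090831.
Mest: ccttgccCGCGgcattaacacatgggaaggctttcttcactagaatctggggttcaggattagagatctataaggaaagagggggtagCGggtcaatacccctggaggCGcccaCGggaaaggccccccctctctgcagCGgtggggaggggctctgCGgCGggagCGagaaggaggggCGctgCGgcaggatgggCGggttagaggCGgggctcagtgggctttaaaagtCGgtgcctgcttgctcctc
Plagl1: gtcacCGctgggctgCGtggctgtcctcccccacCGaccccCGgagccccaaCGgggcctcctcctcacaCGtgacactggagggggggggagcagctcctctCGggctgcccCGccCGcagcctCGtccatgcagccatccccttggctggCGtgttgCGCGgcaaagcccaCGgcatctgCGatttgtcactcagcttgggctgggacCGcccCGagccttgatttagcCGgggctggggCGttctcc
The Mest stretch held 14 CG and the Plagl1 stretch 19, against a median of 6 over 32851 promoter stretches of the same length. As many CG as in Mest were found in 29.4% of these and as many as in Plagl1 in 19.7%. The motif GGGGCCCC, which reads the same on both strands and was searched as a GC-rich sequence of the kind that Plagl1 is known to prefer, was in neither, and in 0.889% of all promoters. No methylation or binding was measured in this series. The table lists 3 starts for Mest, of which the one with most CG is shown, and 1 for Plagl1, and had no entry for H19.

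Members had more UMIs than other fibroblasts: the median was 4261 against 2699 in tube 1 and 9223 against 4416 in tube 2. A cell with more UMIs has more chances to reach 3, so each member was set beside the 5 nearest other fibroblasts of its tube by total UMIs, each used once. These 2280 and 460 depth-matched fibroblasts had medians of 4261 and 9226 UMIs and are the comparison unless another is named. The median share of mitochondrial UMIs was 6.14% in members and 6.34% in depth-matched cells of tube 1, and 3.63% and 4.21% in tube 2. After every cell was thinned to 2000 UMIs, 249 of 13243 fibroblasts (1.88%) still passed the rule in tube 1 and 25 of 4237 (0.59%) in tube 2. Over all barcodes 42 cell tags occurred in both tubes, 32 among fibroblasts and 0 among members. Because members were chosen on measured UMIs and both tubes are pools, differences between members and other cells are given as descriptions, with no test.

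H19 gave most of the UMIs that made a cell a member. It had 2615 UMIs in members of tube 1 and 593 in tube 2, with medians of 4 and 3.5 per cell and maxima of 33 and 46. Mest had 732 and 164 UMIs and Plagl1 612 and 160. H19 was seen in 83.1% and 75.0% of members, Mest in 43.6% and 44.6%, and Plagl1 in 56.6% and 63.0%. Among all other fibroblasts the shares were 2.14% and 4.55% for H19, 1.12% and 1.55% for Mest, and 6.77% and 6.45% for Plagl1. Barcodes with Ptprc had H19 in 0 of 123 and 1 of 50, Mest in 1 and 0, and Plagl1 in 4 and 4. Their median depths were 1945 and 2683 UMIs. They were not free of fibroblast RNA, as only 87 kept barcodes of tube 1 and 1 of tube 2 lacked Col1a1. Of all UMIs in fibroblasts, members held 85.4% and 73.0% of those of H19, 77.0% and 68.3% of those of Mest, but 31.9% and 32.8% of those of Plagl1. These shares follow in part from the rule itself, since H19 had most UMIs per cell.

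The 3 genes were often found in the same cell. All 3 were seen in 95 members (20.8%) of tube 1 and 16 (17.4%) of tube 2, and exactly 2 in 190 and 44. H19 alone made 118 and 19 cells members, Mest alone 19 and 4, and Plagl1 alone 34 and 9. To see each gene without having selected on it, cells were also picked by 3 or more UMIs of 1 gene and set beside their own depth-matched cells. Cells picked by H19 had Mest at 27.4 and 37.6 times the level of their matched cells and Plagl1 at 7.16 and 6.84 times. Cells picked by Mest had H19 at 39.2 and 24.1 times and Plagl1 at 8.96 and 10.6 times. Cells picked by Plagl1 had H19 at 23.96 and 18.72 times and Mest at 31.46 and 18.97 times. Each of the 3 genes was thus far higher in cells picked by either of the others, in both tubes.

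Cells with 2 UMIs of the 3 genes, just outside, numbered 250 and 71 and had H19 at 151 and 72.5 CPM (UMIs of a gene divided by all UMIs of the summed cells and scaled to the usual common total). Cells with 3 UMIs, just inside, numbered 103 and 22 and had H19 at 289 and 122 CPM, which the rule fixes in part. Postn, which codes for the matrix protein periostin and was not part of the rule, stood at 1285 CPM in tube 1 cells with 0 UMIs of the 3 genes, 2698 with 2, 3742 with 3 and 6955 with 10 or more. In tube 2 it stood at 892, 1410, 2305 and 3469 CPM in the same classes, with a high of 4078 at 4 UMIs. Ptn, which codes for the growth factor pleiotrophin, went from 195 CPM at 0 UMIs to 1512 at 10 or more in tube 1, and from 57.2 to 935 in tube 2. Thbs4, a matrix glycoprotein of tendon, went from 33.6 to 638 CPM in tube 1, and in tube 2 from 50.2 to a high of 788 at 5 to 9 UMIs and 463 at 10 or more.

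**Figure D1:**
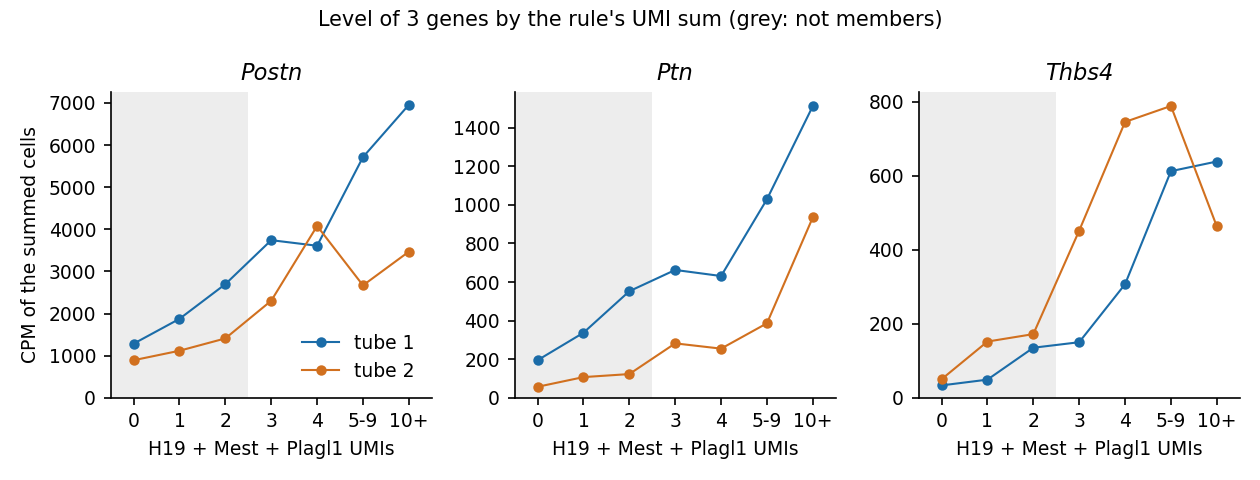
Level of Postn, Ptn and Thbs4 (CPM of the summed cells, linear axes from 0) by the number of H19, Mest and Plagl1 UMIs in a cell, for tube 1 (blue) and tube 2 (orange), with grey over cells outside the rule. Levels were lowest at 0 UMIs and changed over several classes with no single step at the threshold of 3.

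The growth factor genes Ptn and Mdk were among the genes with the highest ratios in members. A gene counted as higher or lower when its ratio of CPM, members over depth-matched fibroblasts, was at least 2-fold in the same direction in both tubes and the larger sum had at least 20 UMIs. Of 9982 genes that could be judged, 130 were higher (1.3%) and 163 lower (1.63%) by that rule. Ptn stood at 1047 CPM in members and 244 in depth-matched cells of tube 1, and at 528 and 68.7 in tube 2, ratios of 4.29 (95% counting interval 4.05 to 4.54) and 7.68 (6.66 to 8.86). These intervals hold counting error only, not differences between animals. Mdk, which codes for midkine, the other heparin-binding growth factor of that family, had ratios of 4.60 (3.98 to 5.32) and 5.97 (4.86 to 7.34). After thinning to 2000 UMIs, Ptn was seen in 69.5% of members, 20.6% of other fibroblasts and 12 of 60 Ptprc barcodes of tube 1, and in 30.8%, 7.48% and 11.4% in tube 2. The share in other fibroblasts was thus near that of Ptprc barcodes, which carry fibroblast RNA too and are no measure of background. Members stood above both.

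Matrix genes outside the main fibrillar collagens were among the highest ratios. Postn stood at 5387 CPM in members and 1622 in depth-matched cells of tube 1, and at 3087 and 1124 in tube 2, ratios of 3.32 and 2.75. Thbs4 had ratios of 8.99 (8.09 to 9.99) and 6.39 (5.63 to 7.26). Its mean log2 ratio over the tubes was 2.92 with all cells and 1.03 without the cells with tendon genes described further on. Those cells were picked in part on Thbs4 itself, so this drop follows in part from the choice. Col8a1, a network-forming collagen, had 10.5 and 3.74, and Aspn, which codes for the small proteoglycan asporin, 2.94 and 2.96. Plod2, a lysyl hydroxylase that modifies collagen crosslinks, had 2.34 and 5.35, and Col12a1, a collagen that binds to fibrils, 2.24 and 3.06. By contrast Col3a1 had log2 ratios of 0.15 and 0.30. Of 28 fibrillar matrix genes that could be judged, 4 were higher (Col12a1, Fbn2, Plod2 and Postn) and 0 lower, with a median log2 ratio of 0.41 against -0.01 over all genes. Postn RNA was widespread, seen after thinning in 94.8% of members but also in 55.2% of other fibroblasts and 68.3% of Ptprc barcodes of tube 1, so its difference is one of level.

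Other secreted and regulatory genes shared the direction. C1qtnf3, a secreted protein of the C1q family, had ratios of 3.86 and 4.90, and Sfrp2, a secreted modulator of Wnt signals, 3.63 and 5.14. Igfbp4, which binds insulin-like growth factors, had 3.43 and 2.90, the one gene past the fold among 17 of the IGF axis. Pamr1 had 3.69 and 4.78, Spon1, a secreted spondin, 4.11 and 3.52, and Csrp2, a LIM domain protein, 3.05 and 3.69. Among transcription factors, Zfhx4 had ratios of 3.41 and 3.57 and Meox2, a mesenchymal homeobox gene, 2.75 and 3.05. The list of mesenchymal transcription factors that holds Meox2 leaned the other way. Of its 16 genes that could be judged, 1 was higher (Meox2), 1 was lower (Sim2) and 5 had a mean above 0. The median log2 ratio of that list was -0.50, against -0.01 over all genes. Atf3, a stress-response factor, had 2.21 and 2.19 and was the one gene past the fold among 18 immediate early genes.

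**Figure D2:**
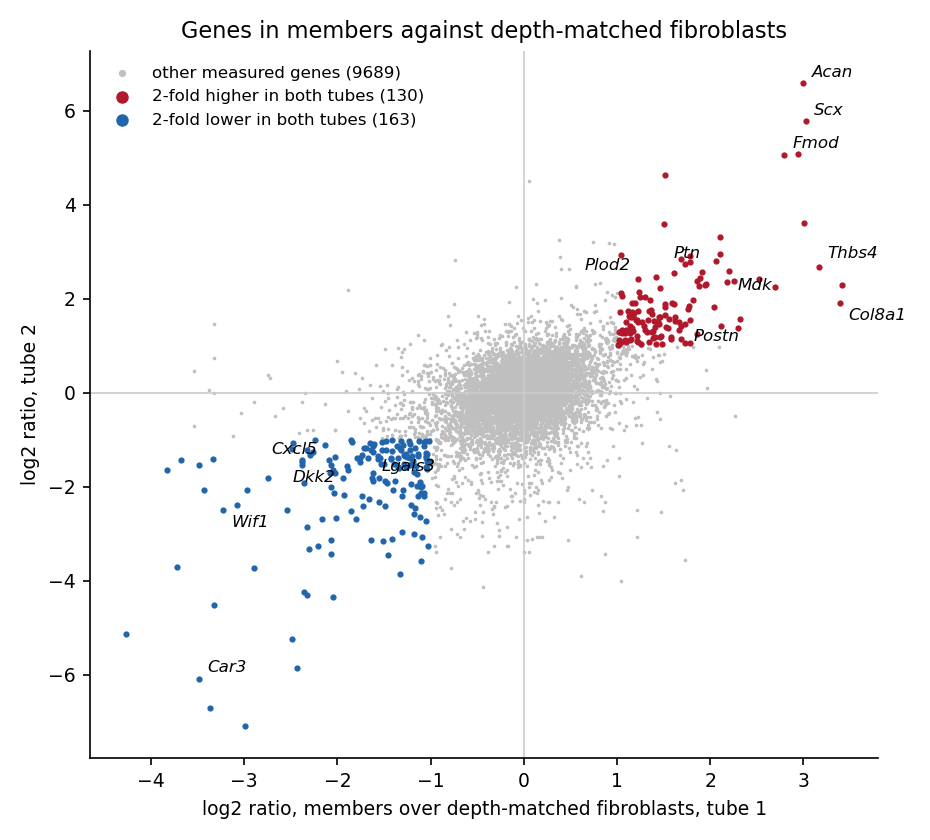
Each point is a gene that could be judged: log2 ratio of CPM, members over depth-matched fibroblasts, in tube 1 (x axis) and tube 2 (y axis). The 130 genes at least 2-fold higher in both tubes are red and the 163 at least 2-fold lower are blue; the 3 rule genes are not drawn.

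Genes of wounds and contractile fibroblasts were partly higher. Of 24 such genes that could be judged, 7 were higher (Adam12, Cthrc1, Fap, Postn, Runx1, Runx2 and Tgfb3) and 1 lower (Inhba), with a median log2 ratio of 0.55. Cthrc1, a secreted protein of matrix-producing fibroblasts, had ratios of 2.29 (2.12 to 2.47) and 3.75 (3.32 to 4.25). Tgfb3, a transforming growth factor ligand, had 3.40 and 3.43. Runx1, a transcription factor, had log2 ratios of 1.08 and 1.27, and Fap, a surface protease of activated fibroblasts, 1.481 and 1.024. Acta2, the smooth muscle actin of contractile myofibroblasts, was at 139 CPM in members and 103 in depth-matched cells of tube 1 and at 294 and 166 in tube 2, under the fold in both. Inhba, a subunit of activins, had ratios of 0.280 and 0.481. Whether a member came from a wound is not given in the labels.

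A subset of members carried Thbs4 and, at fewer UMIs, other tendon and cartilage genes. Of 7 such markers that could be judged, 5 were higher (Acan, Fmod, Scx, Sox9 and Thbs4) and 0 lower, with a median log2 ratio of 2.92. Scx, the transcription factor of tendon progenitors, had 31 UMIs in members and 19 in the 5 times as many depth-matched cells of tube 1, and 44 and 4 in tube 2. Fmod, which codes for the tendon proteoglycan fibromodulin, had ratios of 6.91 (4.77 to 10.1) and 33.4 (22.8 to 50.4). Acan, the cartilage proteoglycan aggrecan, had 24 and 58 UMIs in members and 15 and 3 in depth-matched cells, with ratios of 7.99 (4.02 to 16.4) and 96.2 (31.3 to 480.0). Tnmd, a glycoprotein of mature tendon, differed in direction, with log2 ratios of -0.74 and 2.82. Scx, Thbs4, Fmod, Tnmd and Comp together reached 3 UMIs in 109 members (23.9%) of tube 1 and 44 (47.8%) of tube 2. The counts were 87 (3.82%) and 32 (6.96%) in depth-matched cells. Thbs4 held 996 of the 1236 member UMIs of the whole tendon and cartilage list in tube 1, and 560 of 1056 in tube 2. This split, named by tendon genes below, thus rests mostly on Thbs4 in tube 1. There, members with hashtags 1, 2 and 3 had 22, 0 and 1 UMIs of Scx and 41, 1 and 2 of Fmod.

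Of the 3 rule genes Mest differed most between the members with tendon genes and the others. Mest was at 672 CPM in members with tendon genes and 255 in the rest in tube 1, and at 259 and 79.0 in tube 2. H19 was nearly equal, at 1279 and 1248 CPM in tube 1 and 608 and 655 in tube 2. Postn was at 8105 CPM in members with tendon genes and 4572 in the other members of tube 1, and at 4008 and 2050 in tube 2, so both classes stood above the depth-matched cells (1622 and 1124). Ptn was at 935 and 300 CPM in members without tendon genes, above the 244 and 68.7 of depth-matched cells, and Mdk at 150 and 133 against 38.4 and 37.4. Sfrp2 went the other way in the 2 tubes, with 287 CPM in members with tendon genes and 745 in the others in tube 1, and 529 and 379 in tube 2. Thbs4, which helped to define the split, was at 1884 and 56.1 CPM in tube 1 and 1113 and 11.3 in tube 2. Acan, which did not, was at 37.4 and 3.74 CPM in tube 1 and 108 and 9.03 in tube 2. Cilp, a matrix protein of cartilage, was at 1870 and 319 CPM in tube 1 and 600 and 248 in tube 2. Without cells with tendon genes, 60 genes were higher and 91 lower, in place of 130 and 163; 45 and 63 of these were the same genes. Cells picked by Mest alone had Fmod at 6.52 and 34.5 times their matched cells, and those picked by Plagl1 alone at 2.00 and 2.39 times.

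Some genes of the papillary and hair follicle dermis were lower in members. Of 10 papillary genes, 0 were higher and 4 lower (Apcdd1, Ntn1, Sparcl1 and Wif1), with a median log2 ratio of -1.04, and none of the 10 had a mean above 0. Ntn1, which codes for netrin, had ratios of 0.421 (0.331 to 0.528) and 0.385 (0.248 to 0.574). Of 12 hair follicle dermal genes, 1 was higher (Tnn) and 4 lower (Alpl, Bmp4, Inhba and Prdm1). Alpl, the alkaline phosphatase of the dermal papilla, had ratios of 0.303 and 0.187 and Bmp4, a bone morphogenetic protein, 0.325 and 0.303. Among 18 Wnt and BMP genes 3 were higher (Sfrp2, Sfrp4 and Wnt2) and 3 lower (Bmp4, Dkk2 and Rspo1). Dkk2, a Wnt modulator, stood at 29.8 CPM in members and 111 in depth-matched cells of tube 1 and at 38.2 and 112 in tube 2. Rspo1, which strengthens Wnt signals, had ratios of 0.357 and 0.272.

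Of 23 inflammatory and acute phase genes 0 were higher and 4 lower (Cxcl5, Lcn2, Saa1 and Saa2), with a median log2 ratio of -0.58 and 6 above 0. Cxcl5, a neutrophil chemokine, was at 41.8 CPM in members and 177 in depth-matched cells of tube 1, and at 466 and 1259 in tube 2. Nearly as large a share of members as of other fibroblasts had a Cxcl5 UMI after thinning, 4.09% and 4.68% in tube 1 and 30.8% and 35.1% in tube 2, so the shares differed less than the summed levels. Lgals3, which codes for galectin 3, was at 300.4 and 922 CPM and at 509 and 1227 CPM, and was seen after thinning in 34.3% of members and 76.7% of other fibroblasts of tube 1. Il1r2, a decoy receptor for interleukin 1, had ratios of 0.384 and 0.273. S100a4, a calcium-binding protein, had 0.374 and 0.373. Cyp26b1, which degrades retinoic acid, had 0.315 and 0.379, and Adh7, an enzyme of retinol oxidation, 0.355 and 0.347. Pcolce2, an enhancer of procollagen processing, had 0.3715 and 0.3799.

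Other imprinted genes leaned upward, but not to the level of the 3 rule genes. Of 19 that could be judged, 17 had a mean log2 ratio above 0 and the median was 0.44, against -0.01 over all genes; 1 passed the fold (Mirg, ratios 2.20 and 3.07) and 0 were lower. Meg3, a long noncoding RNA of the same cluster as Mirg, was at 3632 and 2057 CPM in tube 1 and 2654 and 1137 in tube 2, ratios of 1.77 (1.72 to 1.81) and 2.33 (2.22 to 2.45). Cdkn1c, an inhibitor of the cell cycle, had 2.52 and 1.93, Gnas, the stimulatory G protein subunit, 2.06 and 1.75, Igf2r, the receptor that clears Igf2, 1.90 and 1.79, and Grb10, an adaptor that dampens insulin signals, 1.62 and 2.11. Zim1 had 1.75 and 2.06 and Peg3, a zinc finger protein, 1.26 and 1.47. Ndn, at 1.03 and 1.10, and Sgce, at 1.05 and 1.10, were level, and Copg2, which overlaps the Mest region, had 0.402 and 1.68. Dlk1, a fetal growth regulator, had at least 1 UMI in 53 members (11.6%) and 11 depth-matched cells (0.482%) of tube 1, and in 3 (3.26%) and 5 (1.09%) in tube 2. Igf2 had 2 UMIs in each whole tube, and Gm49394, a gene model that overlaps it on the same strand in the GENCODE vM21 annotation, had 0, so no level of Igf2 was read from the single cells.

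The label fetal-like was checked against genes of fetal growth and proliferation. Of 15 fetal and growth genes that could be judged, 3 were higher (Marcksl1, Mdk and Ptn) and 0 lower, with a median log2 ratio of 0.46. Marcksl1, a membrane protein of growing tissue, had ratios of 2.14 and 2.51. Hmga2, a chromatin protein of fetal cells, was at 3.84 CPM in members and 7.60 in depth-matched cells of tube 1, and at 2.12 and 7.47 in tube 2, so it was not higher. Sox11, a transcription factor of fetal mesenchyme, had log2 ratios of -0.20 and -0.55, and Sox4, its relative, 0.71 and 0.80. Of 21 cell cycle genes 0 passed the fold in either direction, with a median log2 ratio of 0.53 and 15 above 0. Their summed level was 438 CPM in members and 415 in depth-matched cells of tube 1, and 504 and 257 in tube 2. At least 1 UMI of Mki67 or Top2a, genes of dividing cells, was found in 7.02% of members and 6.93% of depth-matched cells of tube 1, and in 9.78% and 9.57% in tube 2. Against all other fibroblasts, and thinned to 2000 UMIs, Mki67 was seen in 3.86% of members and 1.98% of the others in tube 1 and in 7.69% and 2.05% in tube 2, with 10.0% and 11.4% in Ptprc barcodes. HOX genes, which record body position, had 0 of 18 past the fold. Over all genes 1.3% were higher and 1.63% lower, so counts of 0 or 1 in such short lists say little. The cells are therefore called by their rule genes here: of the fetal and growth genes Ptn, Mdk and Marcksl1 were higher, Hmga2 and Sox11 were not, 1 of 19 further imprinted genes passed the fold, and the share of cells with Mki67 was above that of all other fibroblasts but the share with Mki67 or Top2a near that of depth-matched ones.

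Fibroblast markers were at the level of depth-matched cells, while muscle markers were low but above it. Of 10 fibroblast markers 0 passed the fold, and their summed level was 71296 CPM in members and 73939 in depth-matched cells of tube 1 and 56445 and 54418 in tube 2. Of 5 keratinocyte markers that could be judged 3 were lower (Dsp, Lgals7 and Sfn) and 0 higher. Without cells with markers of other types their mean log2 ratios were 2.32, 1.21 and 0.91. That filter used these genes too and left at most 1 UMI of such markers per cell, so these ratios say little. In 5 hashtag pools described further on, the ratio was above 1 in 3 for Lgals7, 2 for Sfn and 0 for Dsp. The whole list of 14 summed to 84.5 CPM in members and 148 in depth-matched cells of tube 1 and to 83.9 and 133 in tube 2. Endothelial, pericyte, Schwann and leukocyte markers had 0 past the fold of 2, 6, 3 and 2 judged, with leukocyte markers at 45.1 and 36.1 CPM in tube 1 and 14.9 and 34.2 in tube 2. Endothelial markers summed to 58.5 and 47.4 CPM in tube 1 and to 78.6 and 34.4 in tube 2. Skeletal muscle markers summed to 33.1 CPM in members and 3.56 in depth-matched cells of tube 1 and to 24.4 and 4.27 in tube 2. A UMI of Myog, Myod1, Myf5 or Pax7 was in 6 and 2 members, and without such cells 134 genes were higher and 177 lower, 127 and 159 of them the same. Without cells with 2 or more UMIs of any of these lists, which left 250 of 456 and 24 of 92 members, 54 genes were higher and 98 lower. The part of other cell types in the further genes was not tested.

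The share of members differed between hashtags. Matrices listed 10 hashtags, of which 6 were in use, and 28.0% and 26.4% of fibroblast barcodes had a single hashtag past 3 scaled deviations. Members were called more often, 249 of 456 in tube 1 and 72 of 92 in tube 2. Shares among tagged cells are therefore not those of all fibroblasts. Among those with hashtag 1, members were 172 of 1601 (10.7%, 9.27% to 12.4%) in tube 1 and 31 of 300 (10.3%, 7.13% to 14.3%) in tube 2. With hashtag 3 they were 36 of 745 (4.83%) and 32 of 300 (10.7%). With hashtag 2 they were 23 of 1071 (2.15%) and 5 of 153 (3.27%), with hashtag 5 9 of 516 (1.74%) and 0 of 93 (up to 3.89%), and with hashtag 6 9 of 1040 (0.865%) and 3 of 352 (0.852%). With hashtag 4 they were 0 of 109 (up to 3.33%) and 1 of 50 (2.00%). Hashtags 1 and 3 thus held 69.1% and 14.5% of tagged members in tube 1 and 43.1% and 44.4% in tube 2. Their intervals lay above those of hashtag 6 in both tubes, with counting error only and no allowance for animals or depth. The shares moved with the cut. Past 2 and past 4 scaled deviations, hashtag 3 of tube 2 stood at 7.23% and 16.9%, and hashtag 1 of tube 2 at 8.55% and 10.5%. Barcodes with no call had 1.51% and 0.492% members. Median depth was 3476 UMIs with hashtag 1 and 2603 with hashtag 6 in tube 1, and 5736 and 3448 in tube 2. Which of the pooled samples a hashtag marks was not analysed here, so these are shares of unlabelled pools and not of conditions.

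**Figure D3:**
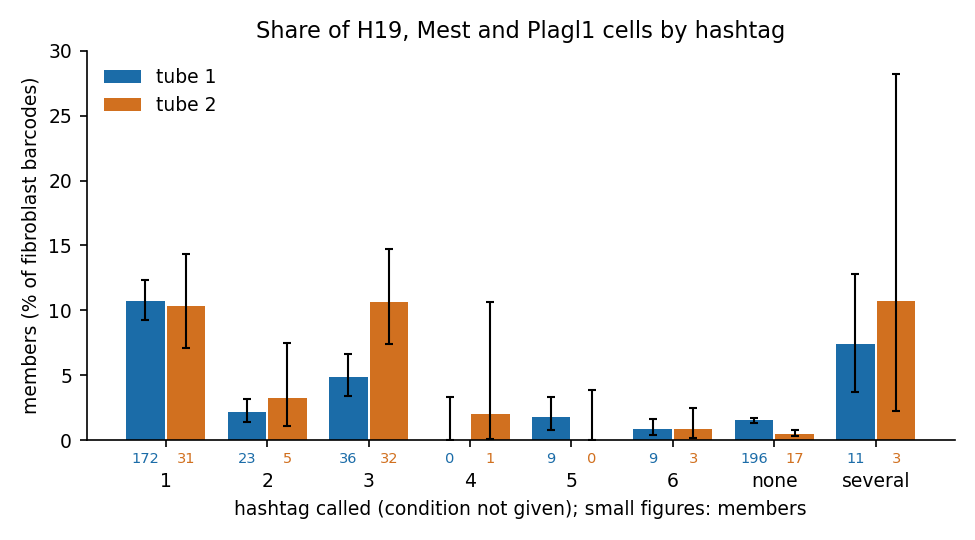
Share of members among fibroblast barcodes (bars, percent, axis from 0) by called hashtag in tube 1 (blue) and tube 2 (orange), with 95% exact binomial intervals and the number of members under each bar. Hashtag 1 stood at 10.7% and 10.3%, and hashtag 6 at 0.865% and 0.852%.

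The genes of the members were seen again when members were compared with cells of the same hashtag. In 5 pools with at least 20 members (hashtags 1, 2 and 3 of tube 1, hashtags 1 and 3 of tube 2), Ptn had ratios of 2.67 to 9.26, Thbs4 2.67 to 14.5, Mdk 2.52 to 4.23, Postn 1.93 to 3.86 and Aspn 2.21 to 3.50. Each was above 1 in 5 of 5 pools. Gnas had 1.71 to 2.37, Meg3 1.476 to 2.203 and Cdkn1c 1.67 to 3.41, also above 1 in 5 of 5. Spon1, at 1.08 to 3.49, Atf3, at 1.03 to 3.54, and Tgfb3, at 1.03 to 4.07, were close to 1 in at least 1 pool. The lowest ratios of Wnt2, Plod2 and Col12a1 were 1.21, 1.25 and 1.33, and Mirg, at 0.764 to 3.23, was below 1 in 1 pool. On the low side Lgals3 had 0.254 to 0.485, Cyp26b1 0.208 to 0.299 and Cxcl5 0.0364 to 0.334. In the pool with most members (hashtag 1, tube 1), 127 of the 130 higher genes kept their direction and 78 the fold. Of its 148 judged lower genes, 145 kept the direction and 108 the fold. These pools are parts of the tubes that chose the genes, so this is no independent support. Over both tubes, 63 genes were 2-fold higher and 140 lower within hashtags, 54 and 76 of them among the 130 and 163.

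**Figure D4:**
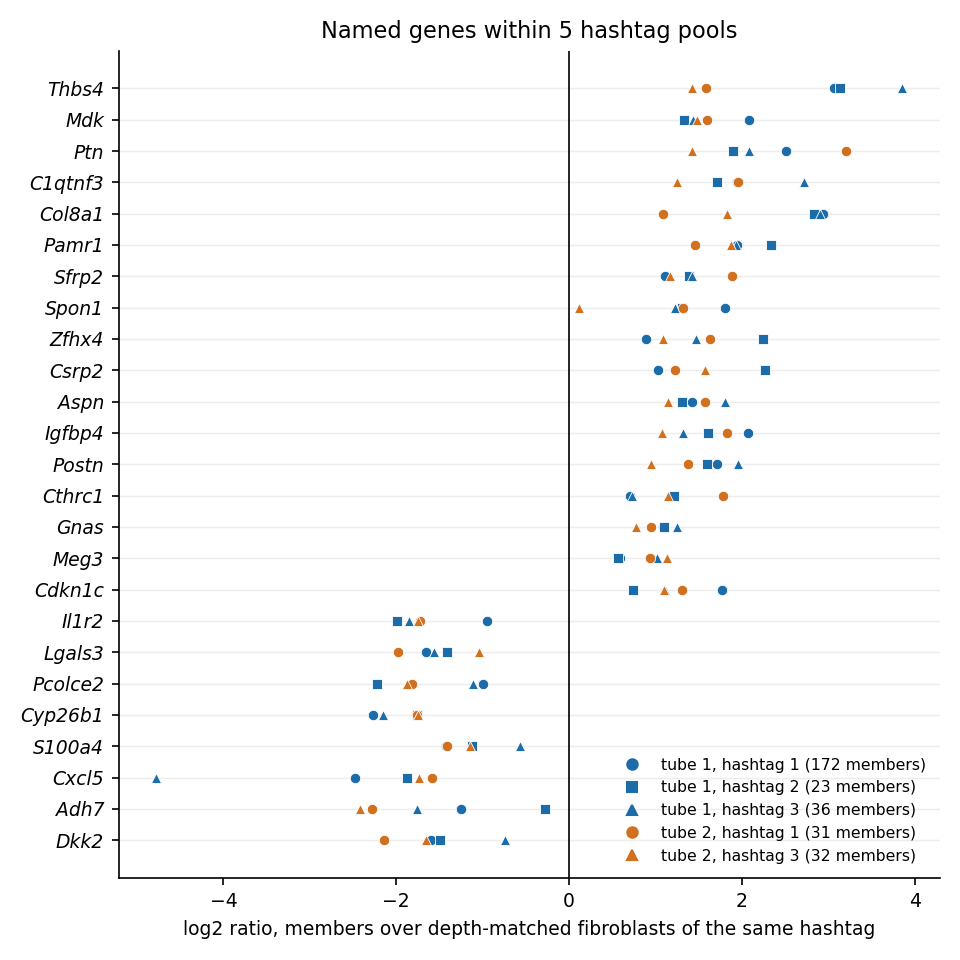
Log2 ratio of CPM, members over depth-matched fibroblasts with the same hashtag, for named genes (rows) in 5 pools (symbols), with the line at no difference. Ptn, Thbs4, Mdk, Postn and Aspn lay to the right and Lgals3, Cyp26b1 and Cxcl5 to the left in 5 of 5 pools.

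Members gathered in 1 cluster but did not fill it. Fibroblasts of both tubes fell into 17 clusters built without H19, Mest and Plagl1, which carry numbers and not cell type names. Cluster 9, led by Hp, Spp1, Thbs4, Plod2, Reg3g, Ptgis, Prg4 and Sfrp2, held 4.48% and 3.15% of fibroblasts but 244 (53.5%) and 51 (55.4%) of members. Members made up 29.98% and 34.23% of it. Cluster 6, led by Inmt, Fmo2 and Plac8, held 100 (21.9%) and 15 (16.3%) of members. The cycling cluster 12, led by Top2a, Ube2c and Stmn1, held 23 (5.04%) and 4 (4.35%), and cluster 10, which has Ptn among its leading genes, 11 and 0. Cluster 7, led by Mlana and C4b, held 0 in both tubes.

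Within cluster 9 members differed from the other cells of the cluster in some genes and little in others. Postn was at 6688 CPM in members and 1971 in other cells of cluster 9 in tube 1, and at 3644 and 2366 in tube 2. Ptn was at 1192 and 199 CPM in tube 1 and 562 and 376 in tube 2. Thbs4 was at 705 and 165 CPM in tube 1 but at 837 and 800 in tube 2. Cxcl5 was at 66.2 and 734 CPM in tube 1 and 319 and 1437 in tube 2. By contrast Cthrc1 was at 598 and 667 CPM in tube 1 and 532 and 441 in tube 2. Il1r2 was at 87.3 and 88.4 CPM and at 91.9 and 97.9, and Cyp26b1 at 86.5 and 111 and at 93.7 and 69.8. Sfrp2 was at 783 and 597 CPM and at 678 and 539, and Lgals3 at 231 and 369 and at 404 and 410. Outside the cluster, other cells had Cthrc1 at 104 and 63.4 CPM and Il1r2 at 395 and 502. These traits were thus shared in part by other cells of cluster 9. Members outside the cluster had Postn at 3854 and 2297 CPM, against 1340 and 867 in other cells outside it. They had Ptn at 879 and 480 CPM, against 218 and 50.7. Postn and Ptn were thus high in members inside and outside the cluster, in both tubes.

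The bulk libraries were not used to choose the cells and allow a test of how the rule genes and the members' genes vary with age and lineage. In bulk, fewer cells of a type and less RNA per cell cannot be told apart. The libraries held 4264647 to 17187950 counts in genes. The library labelled PNF P30 A went against its label: it held RNA of the embryonic globins Hbb-y, at 25475 CPM against 0 to 139 in the other 7 P30 libraries, and Hba-x, at 3247 CPM. It had 46.4% of counts in erythroid genes, Prrx1 at 0 and a correlation with PNF P30 B of 0.70 across genes. PNF E18.5 A had 43.2% erythroid counts. Values without the library labelled PNF P30 A stand beside the tests of genes and lists named from the fetal and P30 comparison. Levels are CPM scaled by TMM, and tests are edgeR's quasi-likelihood test with Benjamini-Hochberg adjustment over 15553 genes. By that test 381 genes (2.45%) were higher in fetal libraries (E16.5 and E18.5) and 375 (2.41%) lower than at P30.

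Plagl1 was higher in fetal libraries than at P30. At E16.5 it was at 641 and 1028 CPM in PPF and 591 and 777 in PNF. At E18.5 it was at 231 and 261 CPM in PPF and 162, 174, 261 and 775 in PNF. At P1 it was at 231 and 246 CPM in PPF and 240, 267, 343 and 391 in PNF. At P30 it ran from 21.9 over a median of 50.5 to 117 CPM in the 6 PPF libraries, and was at 23.7 in PNF P30 B and 214 in the library labelled PNF P30 A. Without that library every fetal value lay above every P30 value, and with it the ranges overlapped. The log2 difference, fetal over P30, was 2.66 (SE 0.49, adjusted p = 0.00264), and 3.26 without that library (adjusted p = 0.000272). P1 stood 1.84 above P30 on the log2 scale (SE 0.52, adjusted p = 0.0766), short of the threshold.

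H19 passed the test of age in some fits and not in others. At E16.5 it was at 11.51 and 11.999 CPM in PPF and 8.653 and 11.5 in PNF. At E18.5 it was at 3.44 and 4.22 CPM in PPF and 1.604, 2.138, 8.398 and 16.17 in PNF. At P1 it was at 6.08 and 9.07 CPM in PPF and 0, 1.13, 1.77 and 1.84 in PNF. At P30 it ran from 0 to 1.28 CPM in the 6 PPF libraries, and was at 0 in PNF P30 B and 7.84 in the library labelled PNF P30 A. Fetal and P30 libraries overlapped only through that library. The log2 difference, fetal over P30, was 2.88 (SE 1.13, adjusted p = 0.142) with it and 5.83 (adjusted p = 0.00374) without it. DESeq2 and limma voom on all libraries gave 2.78 (adjusted p = 0.049) and 4.80 (adjusted p = 0.00381).

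Mest did not pass the test of age. Its levels were low, like those of H19, and at such levels a change with age may be missed. Mest ran from 0.150 to 8.38 CPM in fetal libraries and from 0 to 2.52 at P30. The ranges overlapped with and without the library labelled PNF P30 A. The log2 difference was 1.03 (SE 0.87, adjusted p = 0.545), and 0.65 without it (adjusted p = 0.664). Over the 32 alternatives tried for Mest the adjusted p lay between 0.294 and 0.902.

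**Figure D5:**
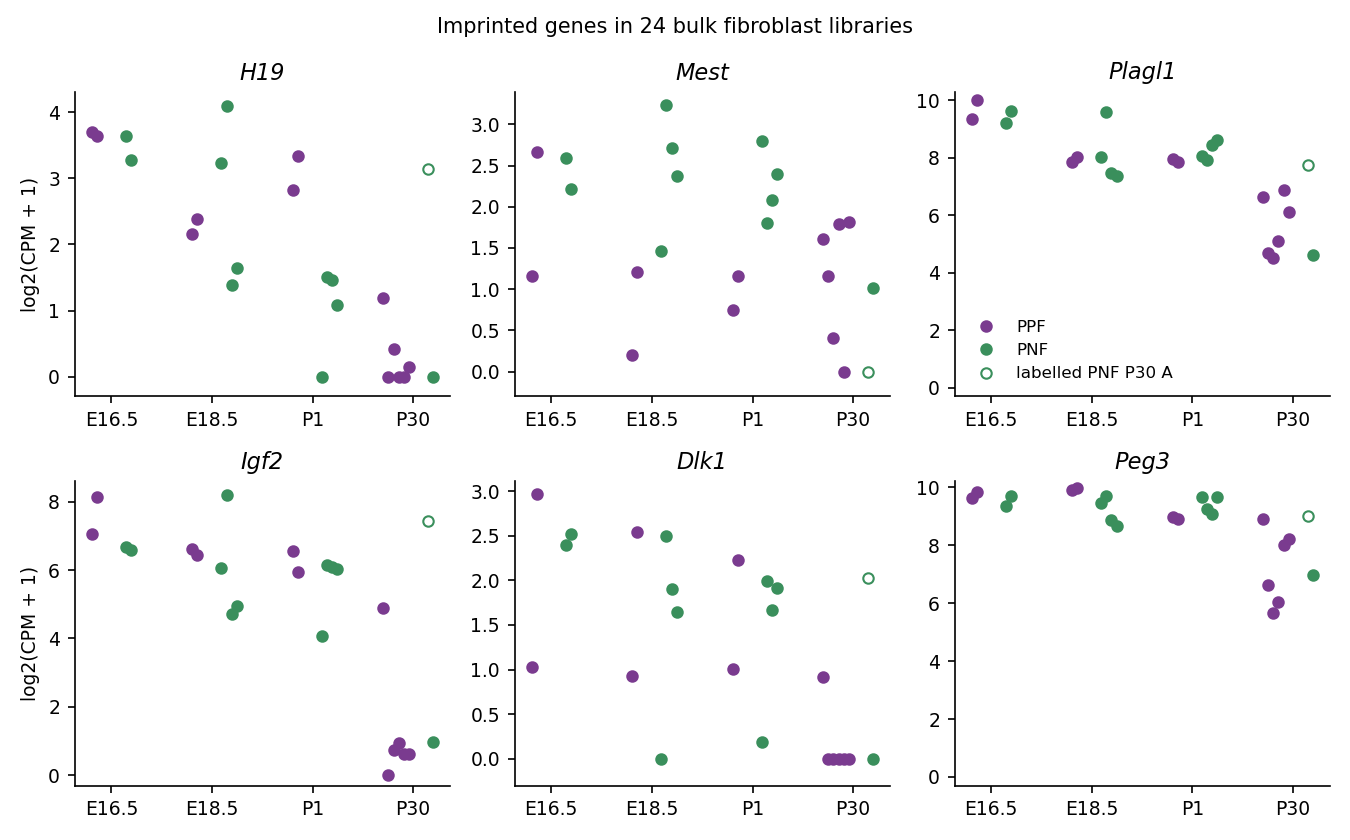
Level of 6 imprinted genes in 24 bulk libraries, as log2(CPM + 1), by age, for PPF (purple), PNF (green) and the library labelled PNF P30 A (open circle). H19, Plagl1 and Igf2 were low in all other P30 libraries except for Igf2 in PPF P30 A at 28.5 CPM, and the open circle lay among fetal libraries for these genes.

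Other imprinted genes followed age in part. Of 31 tested, 6 were higher in fetal libraries (Asb4, Gnas, Igf2r, Peg3, Slc38a4 and Zim1; 19.4% against 2.45% of all genes) and 0 higher at P30, with a median log2 difference of 1.22 against 0.15 over all genes. Without the library labelled PNF P30 A, 10 were higher, with a median of 1.12. Igf2, the growth factor gene next to H19, ran from 25.2 to 290 CPM in fetal libraries, and was at 28.5 CPM in PPF P30 A, under 1 in the other PPF and PNF B libraries of P30, and 171 in the library labelled PNF P30 A. Its log2 difference was 2.58 (adjusted p = 0.171) with that library and 5.08 (adjusted p = 0.00301) without it. Dlk1 had 2.84 (adjusted p = 0.142) and 4.69 (adjusted p = 0.0186). Peg3 rose by 1.66 (SE 0.39, adjusted p = 0.0149), Gnas by 1.96 (SE 0.49, adjusted p = 0.0215), Zim1 by 3.28 (SE 0.90, adjusted p = 0.0349) and Igf2r by 1.31 (SE 0.34, adjusted p = 0.025) from P30 to fetal libraries. Without the library labelled PNF P30 A these differences were 2.03 (adjusted p = 0.00242), 1.87 (0.0239), 2.98 (0.0357) and 1.10 (0.0434). The call of Peg3 ended with 8 group means (adjusted p = 0.0535). Meg3, at 0.41 (adjusted p = 0.681), and Cdkn1c, at 1.74 (adjusted p = 0.14), did not pass. Leaving out 1 library ended the call of Gnas for PPF E16.5 B (adjusted p = 0.0854) and PNF P30 B (0.0594), that of Igf2r in 8 of 24 such fits and that of Zim1 in 15 of 24.

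Genes high in members were called in both directions of age. Of the 130 higher genes 113 were tested in bulk: 8 were higher in fetal libraries (7.08%, against 2.45% of all genes; Acan, Capn6, Col12a1, Col27a1, Itm2a, Marcksl1, Pdgfa and Sox9) and 9 higher at P30 (7.96%, against 2.41%; Ace, Atf3, Bhlhe41, Cilp, Fndc1, Gm12840, Prlr, Spon1 and Sulf1). The median log2 difference was -0.28, against 0.15 over all genes. Without the library labelled PNF P30 A, 12 and 10 were called and the median was -0.05, against 0.03. Both shares were above those of all genes, with about as many genes on either side. Unlike all genes, the 113 had passed the minimum of UMIs in the single cells. Marcksl1 rose by 1.03 (SE 0.28, adjusted p = 0.0327), Col12a1 by 2.13 (SE 0.58, adjusted p = 0.0332) and Acan by 5.43 (SE 1.47, adjusted p = 0.0312) toward fetal libraries; leaving out 1 library ended these calls in 10, 14 and 6 of 24 fits, and 4 of the other alternatives ended each (adjusted p up to 0.178, 0.122 and 0.423). Without the library labelled PNF P30 A they had 1.54 (adjusted p = 0.000131), 1.87 (0.00992) and 5.20 (0.0354). Without PPF E16.5 B, Acan had 3.64 (adjusted p = 0.334). Spon1, at -2.07 (SE 0.52, adjusted p = 0.0222), and Atf3, at -1.60 (SE 0.35, adjusted p = 0.00944), were higher at P30; for Spon1 the call ended without PNF P30 B (adjusted p = 0.083). They had -2.27 (0.0096) and -1.86 (0.000716) without the library labelled PNF P30 A. Postn had a difference of 0.34 (adjusted p = 0.879), Thbs4 -1.17 (0.6246), Mdk -0.54 (0.617) and Sfrp2 0.15 (0.893). Aspn had -0.80 (adjusted p = 0.49), Cthrc1 1.55 (0.228) and Igfbp4 -1.003 (0.1665). Postn ran only from 0 to 36.4 CPM and Mdk from 0.996 to 22.5 CPM over all libraries. At such levels a change with age may be missed. Ptn had 1.16 (adjusted p = 0.282), and 2.09 (adjusted p = 0.0252) without the library labelled PNF P30 A, and Col8a1 1.04 (0.467) and 2.31 (0.022).

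Genes low in members were more often called higher at P30 than all genes were. Of 139 tested, 2 were higher in fetal libraries (1.44%; Car3 and Nrtn) and 23 higher at P30 (16.55%, against 2.41% of all genes), with a median log2 difference of -1.33. The counts were 2 and 43 and the median -1.66 without the library labelled PNF P30 A. To be judged lower, a gene needed at least 20 UMIs in cells of postnatal skin, a filter not applied to all genes of the bulk test. The excess over all genes was not tested against genes past the same filter. Dkk2 was at 1.35 to 53.0 CPM in fetal libraries and, leaving aside the library labelled PNF P30 A at 34.4, at 83.1 to 543 CPM at P30. Its difference was -3.63 (SE 0.65, adjusted p = 0.00204). Rspo1, at 27.4 to 84.7 CPM in fetal libraries and 98.1 to 567 at P30, with no overlap, had -2.58 (SE 0.45, adjusted p = 0.00168). Adh7 had -3.23 (SE 0.69, adjusted p = 0.00864) and Il1r2 -8.20 (SE 1.71, adjusted p = 0.00753); the call of Adh7 ended without PNF P30 B (adjusted p = 0.0653). Without the library labelled PNF P30 A, Dkk2 had -3.93 (adjusted p = 0.000261), Rspo1 -2.85 (0.000202), Adh7 -3.51 (0.00139) and Il1r2 -9.07 (0.000366). Cyp26b1, at -0.45 (adjusted p = 0.645), and Lgals3, at -1.51 (adjusted p = 0.441), did not pass. Car3, an adipocyte enzyme with 1 UMI in members of each tube, went the other way, at 6.23 (SE 1.61, adjusted p = 0.0253), 5.99 (0.0287) without the library labelled PNF P30 A, and 4.76 (0.0853) without PPF E16.5 A; 4 of the other alternatives ended its call (adjusted p up to 0.133).

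Other lists were read against the 2.45% of all genes higher in fetal libraries and the 2.41% higher at P30. Of 21 cell cycle genes 10 (47.6%) were higher in fetal libraries and 0 at P30, with a median of 2.86. In members, by the fold and not by a test, 0 passed, while 15 had a mean log2 ratio above 0. Without the library labelled PNF P30 A, 14 were higher in fetal libraries. Of 21 fetal and growth genes 5 (23.8%) were higher in fetal libraries (Hmga2, Hmgb2, Igf2bp3, Marcksl1 and Stmn1), and 9 without that library. Hmga2, which was not higher in members, rose by 5.16 (SE 1.39, adjusted p = 0.0306), and by 5.18 (0.0308) without that library. Igf2bp3, an RNA-binding protein of fetal tissue, rose by 4.73 (SE 0.65, adjusted p = 0.000165), and by 4.99 (3.11e-05) without that library, and had 14 and 9 UMIs in members, too few to judge. Of 18 inflammatory genes 5 (27.8%) were higher at P30 and 0 in fetal libraries, and 9 without that library. Of 16 immediate early genes 7 (43.8%) were higher at P30 and 0 in fetal libraries, and 10 without it. Of 11 tendon and cartilage genes 3 (27.3%) were higher in fetal libraries (Acan, Matn1 and Sox9), and 4 without it, while Scx, at 1.57 (adjusted p = 0.562), and Fmod, at -0.87 (adjusted p = 0.724), did not pass.

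Between P1 and P30, 111 genes (0.714%) were higher at P1 and 60 (0.386%) lower. These counts went to 2 and 2 without PPF P1 A, and to 3 and 7 without PPF P1 B. H19 had a difference of 1.78 (adjusted p = 0.54). Between the lineages at equal age class, 10 genes (0.0643%) were higher in PPF and 85 (0.547%) lower. None of the rule genes was among them: H19 had -0.46 (SE 0.92, adjusted p = 0.916), Mest -0.89 (SE 0.82, adjusted p = 0.769) and Plagl1 -0.28 (SE 0.40, adjusted p = 0.866), PPF over PNF. Ptn, at -1.10 (adjusted p = 0.431), Thbs4, at -1.65 (adjusted p = 0.678), and Postn, at -1.44 (adjusted p = 0.593), did not pass either.

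Within lineages the age difference of Plagl1 passed in PPF. In the 12 PPF libraries 127 of 13485 genes (0.942%) were higher in fetal libraries and 275 (2.04%) lower; Plagl1 had 3.104 (SE 0.58, adjusted p = 0.0117), H19 4.58 (SE 1.24, adjusted p = 0.0632) and Mest 0.44 (SE 1.22, adjusted p = 0.903). In the 12 PNF libraries 0 of 14701 genes passed in either direction (0.0% and 0.0%), with 1144 at an unadjusted p under 0.05; Plagl1 had 1.94 (SE 0.88, adjusted p = 0.637), H19 1.07 (SE 1.69, adjusted p = 0.899) and Mest 2.98 (SE 1.20, adjusted p = 0.566). One of the 2 PNF libraries of P30 is the one labelled PNF P30 A; without it 8 genes were higher and 16 lower, in a fit that assumes the lone P30 library to vary like the other groups. That the age difference of a rule gene differs between PPF and PNF was not tested.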

How the data were processed

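The deposited single-cell files hold raw UMI counts per gene and barcode for 2 tubes, with hashtag counts beside them; mm10 and Seurat 3.1.1 and 3.2 are named in the submitters' processing notes. The deposited bulk files hold raw counts per transcript, from featureCounts per the file names; other steps are not given in the sources used here. Reads shared by several transcripts may not be counted, so levels are not compared between genes. Transcript counts were summed to genes through the GENCODE vM21 names in the annotation given (5.257% of counts matched no gene).

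The members, the 24 gene lists and the tests were chosen with earlier results of these data known. For each tube, UMIs of members and of depth-matched cells were summed and turned into CPM, with exact counting intervals. The named genes were the 3 rule genes, the imprinted genes with at least 20 UMIs in the larger sum of each tube, the 12 largest and 8 smallest ratios among genes of at least 100 CPM in both tubes (predicted, Rik, mitochondrial, ribosomal, haemoglobin, Xist and Y-linked genes left out), and up to 3 genes per list past the fold; other genes named were chosen after their values were seen. A hashtag was called past 3 scaled deviations. Clusters used 2000 variable genes, 30 components, 20 neighbours and a Leiden resolution of 0.8, without the rule genes. Scrublet called 0 barcodes in either tube, so the caller did not work and doublets were not removed. The highest Scrublet scores held 6.36% and 13.0% of members of tubes 1 and 2, and 5.17% and 5.93% of other fibroblasts. Without cells of these scores 122 genes were higher and 196 lower, 102 and 135 of them among the 130 and 163.

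Bulk counts were tested with edgeR 4.0.16 (quasi-likelihood, TMM, filterByExpr, age class plus lineage) in R 4.3.3, with Benjamini-Hochberg adjustment and a threshold of 0.05; limma 3.58.1 and DESeq2 1.42.0 were alternatives. The biological coefficient of variation was 1.09. The test was run on simulated data for fetal against P30 (15553 genes): it recovered 40 of the 100 genes given a 4-fold difference and 84 of the 100 given a 16-fold one. Single cells were handled with Python 3.11.15, scanpy 1.11.5, scipy 1.17.1, numpy 2.4.6 and pandas 2.3.3.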

Additional observations from a re-analysis of the deposited data

Results flagged for a closer look

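In 7 of 51 combinations of a gene named here and a group of at least 4 bulk libraries, 1 library stood far from the rest. For 1 such combination chance gives about 1 in 20. The combinations share libraries and are not independent, so their count is not set against that rate. In PPF P30 A, H19 was at 1.28 CPM (others 0 to 0.332) and Marcksl1 at 441 CPM (others 174 to 266). In PNF E18.5 B, Plagl1 was at 775 CPM (others 162 to 261) and Acan at 1309 CPM (others 4.28 to 127). Il1r2 was at 31.6 CPM in PNF E18.5 A (others 0.299 to 3.49). Car3, an adipocyte enzyme, was at 6246 CPM in PNF P1 B (others 0 to 119) and at 30.4 CPM in PPF P30 B (others 0 to 5.87).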

How the results depend on the processing

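The share of members moved with the rule: it was 3.89% and 3.45% in tubes 1 and 2 with a minimum of 2 UMIs, 1.61% and 1.14% with 5, and 1.88% and 0.59% after thinning to 2000 UMIs. In tube 1 it was 3.44% with at most 5% mitochondrial UMIs and 3.48% with at least 1000 genes. In place of 130 genes higher and 163 lower, all other fibroblasts as comparison gave 349 and 437, a fold of 1.5 gave 337 and 448, leaving out cells with markers of other types gave 54 and 98, leaving out cells with tendon genes gave 60 and 91, and Plagl1 alone as the rule gave 41 and 98. Genes higher also moved to 61 with at most 5% mitochondrial UMIs, 72 with members chosen after thinning to 5000 UMIs, and 63 within hashtags. Members by 1 gene, the hashtag, tendon, muscle and top Scrublet score settings, the summed libraries and the alternatives of the other bulk comparisons were added after seeing the data. The planned removal of Scrublet calls could not be run, as there were none. Of 780 values for 65 named single-cell genes 545 moved by less than their interval, and 6 values of genes past the fold changed direction, all of keratinocyte genes at few UMIs: Dsp was at 2.32 and Sfn and Lgals7 at 0.91 and 1.21 (log2) without cells with markers of other types, and Dsp at 0.03 without tendon cells, 0.59 with Mest alone and 0.32 with Plagl1 alone. The filter on markers of other types used these keratinocyte genes itself. Without tendon cells the mean log2 ratio of Thbs4 went from 2.92 to 1.03, of Scx from 4.40 to 0.61 and of Fmod from 3.92 to 0.82. Tendon cells were picked on these genes, so their drop follows in part from the choice. C1qtnf3 and Ptn, which were not used, went from 2.12 to 1.02 and from 2.52 to 2.11. The imprinted genes Ndn, Sgce, Tssc4, Inpp5f, Zrsr1, Mcts2 and Copg2, which were not past the fold, lay on both sides of 0 over the settings (Sgce from -0.52 to 0.33). The cause was not tested.

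For fetal against P30, in place of 381 higher and 375 lower, DESeq2 gave 696 and 1092, leaving out libraries rich in erythroid RNA 707 and 924, and summing libraries C with D and E with F 102 and 196; limma voom gave 595 higher and 8 group means 109. Leaving out 1 library gave 218 (without PPF E16.5 B) to 593 higher and 245 (without PPF E16.5 A) to 844 lower, the highest both without the library labelled PNF P30 A. For P1 against P30, libraries rich in erythroid RNA left out gave 261 and 267, and leaving out 1 library 2 to 234 higher and 2 to 226 lower, the lowest both without PPF P1 A. For PPF against PNF, 21 were higher without erythroid-rich libraries, and leaving out 1 library gave 3 to 19 higher and 36 to 135 lower. Within PPF that range was 56 to 178 higher and 148 to 298 lower. Within PNF, 33 and 37 were called without erythroid-rich libraries, and leaving out 1 library gave 0 to 2606 higher and 0 to 413 lower, the highest without PNF P30 B; leaving out either leaves a lone P30 library, which is assumed to vary like the other groups.

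Library letters did not pair samples: over 62 same-letter pairs the correlations of deviations ran from -0.21 to 0.14, with a median of 0.0051. With the letter as a replicate block the counts were 59 higher and 102 lower for fetal against P30, 8 and 21 for P1 against P30, 0 and 7 for PPF against PNF, 0 and 2 within PPF and 0 and 0 within PNF. Under the block Plagl1 had an adjusted p of 0.0196, and the calls of Gnas (0.112), Igf2r (0.0893), Zim1 (0.146), Spon1 (0.14), Atf3 (0.0575), Adh7 (0.0626), Marcksl1 (0.101), Col12a1 (0.0511), Car3 (0.0882) and Acan (0.137) were lost in edgeR's test.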
